A study of Mus musculus with 8 samples.

Results

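The zinc finger homeobox genes Zfhx2, Zfhx3 and Zfhx4 encode very large transcription factors that carry many C2H2 zinc fingers and several homeodomains in a single chain. They were described here by their differential H3K27ac regions in mouse primary myotubes that lack Nrip1, which encodes the nuclear receptor corepressor RIP140. Regions were chosen by position and called direction together. A region was taken when its centre lay inside a Zfhx gene or within 500 kb of the start of a Zfhx gene record (GENCODE M21, mouse build mm10). It was also taken when a Zfhx gene had the nearest start among all annotated transcripts of protein-coding genes. This gave 12 of the 11180 differential regions, around 3 of 21938 protein-coding genes. Of the 12 regions, 10 were decreased and 2 were increased in KO myotubes. Zfhx3 held 6 of them, and Zfhx2 and Zfhx4 held 3 each.

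The study compared Nrip1KO with Ctrl myotubes to find acetylated chromatin that changes without RIP140. Each genotype gave 2 H3K27Ac libraries and 2 IgG libraries, 8 in all, by CUT&RUN, in which an antibody directs a nuclease to the marked nucleosomes of isolated nuclei. The groups used were Nrip1KO and Ctrl with the H3K27Ac antibody, and the IgG libraries have no list of their own. Satellite cells had been taken from gastrocnemius muscle, expanded to passages 6 to 9 and kept in differentiation medium for 4 days, after which pooled nuclei were shared out between the antibodies. Per the study, the cells came from striated muscle-specific knockout mice, in which floxed Nrip1 alleles (C57BL/6J) had been combined with a Cre transgene (C57BL/6JN) driven by the muscle creatine kinase promoter, and littermate controls lacked Cre. The animals of the study were 8 to 16 weeks old, and an age for the cell donors is not given separately. This promoter is active in differentiated striated muscle cells, and excision of the allele in the cultures was not measured here. The labels name an H3K27Ac antibody from a different supplier than the methods do. The deposited lists give each region's position, a name and a score that is the same in every region, with 1 list per direction at a cutoff of 2-fold between genotypes, so neither a level per library, nor the size of a change, nor its spread between replicates can be given. For the same reason the lists cannot show whether marker genes of muscle cells were acetylated in these cultures, only where the called differences lay. Depth per library is unknown. No test was made of any count below, because position and direction had selected the members.

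H3K27ac marks active enhancers and promoters, and wide stretches of it often lie over genes that control cell identity. Zfhx3, also known as ATBF1, was first found as a factor that binds AT-rich sequence of the alpha-fetoprotein enhancer, and its isoforms have been reported to act on the differentiation of cultured myoblasts. Zfhx4 is known for work with the chromatin remodeller CHD4, and Zfhx2 for roles in neurons.

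The sequences below are from the GRCm38.p6 assembly, which mm10 corresponds to. They show how differently these regions were built. The first comes from the wide decreased region over the start of Zfhx4, and its capitals mark every CpG dinucleotide. It is the stretch of 300 bases outside annotated exons with the most CpG in that region, at chr3:5219579-5219878 on the plus strand, 1053 to 1352 bp past the gene start. It held 31 CpG at a GC content of 71.7%.
Zfhx4 start, decreased: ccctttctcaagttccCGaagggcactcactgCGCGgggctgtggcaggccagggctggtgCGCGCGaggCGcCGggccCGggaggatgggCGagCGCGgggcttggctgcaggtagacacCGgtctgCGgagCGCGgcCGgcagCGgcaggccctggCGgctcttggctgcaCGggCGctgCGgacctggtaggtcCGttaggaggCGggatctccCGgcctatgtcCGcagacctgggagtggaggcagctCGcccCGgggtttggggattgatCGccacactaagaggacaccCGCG

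Next are 300 bases from each of 2 regions inside Zfhx3 with opposite directions, in which capitals mark the RUNX motif TGTGGT on either strand. The increased one is chr8:108614109-108614408 and the decreased one, the last before the 3' end of the gene, is chr8:108885282-108885581, both on the plus strand.
Zfhx3 intron, increased: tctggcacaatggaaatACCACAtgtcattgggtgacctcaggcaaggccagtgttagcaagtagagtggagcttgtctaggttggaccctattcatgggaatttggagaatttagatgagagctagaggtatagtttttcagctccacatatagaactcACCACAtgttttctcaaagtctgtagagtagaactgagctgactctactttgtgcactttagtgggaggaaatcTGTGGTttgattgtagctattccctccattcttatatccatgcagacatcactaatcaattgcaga
Zfhx3 intron, decreased: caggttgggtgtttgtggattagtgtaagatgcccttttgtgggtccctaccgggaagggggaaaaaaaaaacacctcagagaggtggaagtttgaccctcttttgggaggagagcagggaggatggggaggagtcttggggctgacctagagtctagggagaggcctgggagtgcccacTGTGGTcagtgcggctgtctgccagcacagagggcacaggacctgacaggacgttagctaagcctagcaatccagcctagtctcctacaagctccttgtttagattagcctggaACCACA

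The last pair are the narrower decreased regions of Zfhx4, where capitals mark the AP-1 motif TGANTCA (with N for any base), the TEAD motif CATTCC and the E-box CAGCTG. The distant one is chr3:4949410-4949709 and holds an AP-1 and a TEAD match. The intronic one is chr3:5359371-5359670 and holds a TEAD match and an E-box. The whole regions around them held 3 CpG and 1 CpG.
Zfhx4 upstream, decreased: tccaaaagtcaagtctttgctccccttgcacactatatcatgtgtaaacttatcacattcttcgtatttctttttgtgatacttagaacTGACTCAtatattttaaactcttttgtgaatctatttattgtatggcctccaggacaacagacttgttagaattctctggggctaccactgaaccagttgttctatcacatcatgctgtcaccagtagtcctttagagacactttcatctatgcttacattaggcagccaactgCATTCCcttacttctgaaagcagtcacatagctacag
Zfhx4 intron, decreased: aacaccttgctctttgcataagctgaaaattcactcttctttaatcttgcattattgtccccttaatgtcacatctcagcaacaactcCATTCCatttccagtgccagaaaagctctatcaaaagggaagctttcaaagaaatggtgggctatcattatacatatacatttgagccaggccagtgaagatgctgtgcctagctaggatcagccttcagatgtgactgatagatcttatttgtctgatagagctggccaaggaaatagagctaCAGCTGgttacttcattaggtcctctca

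Among the 12 Zfhx regions, 83.3% were decreased (95% Wilson interval 55.2 to 95.3, which covers counting error only), beside 65.0% of all 11180 regions. The 2 increased regions made up 16.7%, beside 35.0% of all regions. The interval holds the share of the whole list, and nothing is read from the difference because the direction belongs to the rule. Without the 3 regions that came in by the window alone, 7 of the 9 left were decreased. Other regions around the 3 genes were counted for comparison. Of those within 5 Mb of the start, 4 of 11 were decreased around Zfhx2, 51 of 61 around Zfhx3 and 5 of 10 around Zfhx4. Over whole chromosomes, decreased regions made up 60.5% of 167 on chromosome 14, 75.3% of 620 on chromosome 8 and 57.4% of 481 on chromosome 3, which carry Zfhx2, Zfhx3 and Zfhx4 in that order. The Zfhx3 regions, 5 of 6 decreased, thus lay among mostly decreased regions. Within 5 Mb, the 3 decreased regions at Zfhx4 lay among as many increased as decreased regions. The Zfhx2 regions, 2 of 3 decreased, lay among regions that were more often increased. Both decreased ones came in by the window alone and were nearest to Homez and Cmtm5, while the only region inside Zfhx2 was increased. The local counts around Zfhx4 and Zfhx2 were small, with Wilson intervals of 23.7 to 76.3% decreased around Zfhx4 and 15.2 to 64.6% around Zfhx2. Chromosomes 3 and 14 as a whole held more decreased than increased regions.

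**Figure D1:**
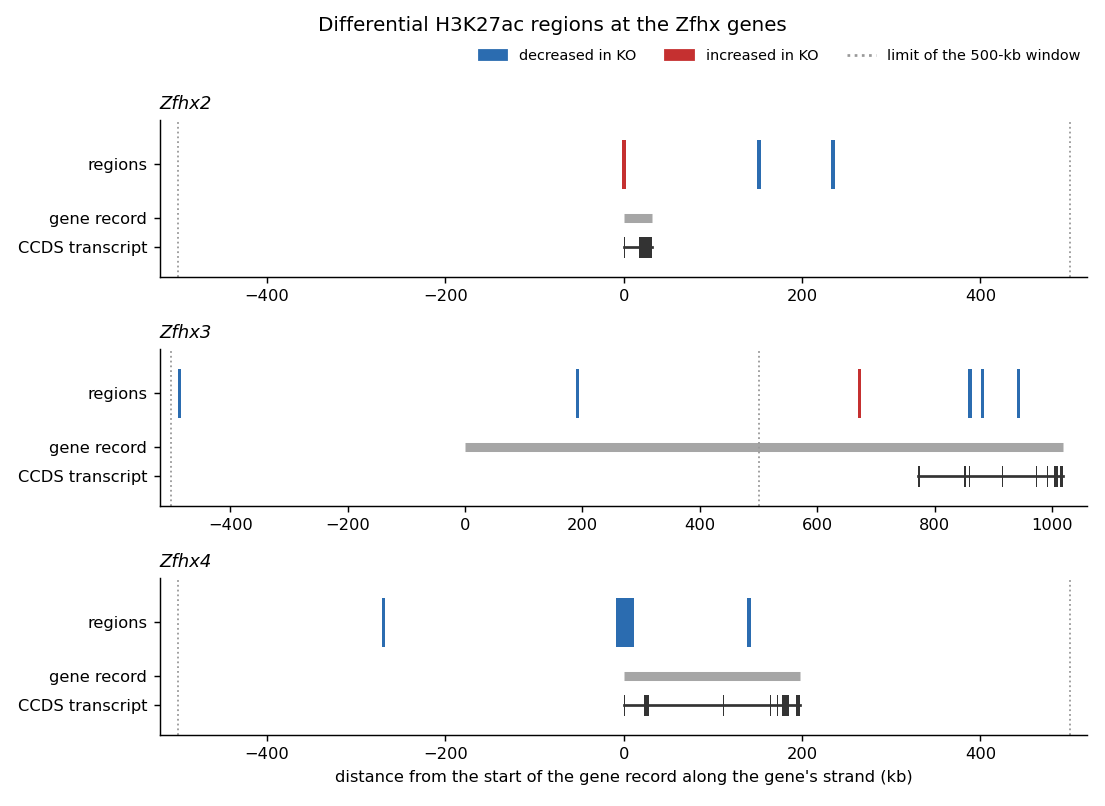
Differential H3K27ac regions at Zfhx2, Zfhx3 and Zfhx4, plotted by distance in kb from the start of the gene record along the strand of the gene. Blue bars are decreased and red bars increased regions, grey bars the gene record, thin black lines with blocks the CCDS transcript and its exons, and dotted lines the limits of the 500-kb window, with narrow features drawn at a minimum width so that they can be seen. All 3 regions of Zfhx4 were decreased, the single region inside Zfhx2 was increased, and Zfhx3 held both directions.

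By the nearest protein-coding start, decreased regions were assigned to Zfhx3 (4 regions) and Zfhx4 (3 regions) and increased regions to Zfhx2 and Zfhx3 (1 region each). In the background, 17.8% of protein-coding genes were nearest to a decreased region and 10.6% to an increased region. Decreased regions were centred inside Zfhx3 (4) and Zfhx4 (2), beside 11.9% of all genes, and increased regions inside Zfhx2 and Zfhx3, beside 6.61%. Zfhx3 alone had both directions inside, which 1.52% of all genes had. Gene length bears on these counts. Of 214 protein-coding genes of 0.5 to 2 times the length of Zfhx3, the median held 2 regions, the most held 19, and 27.1% had both directions inside. The 5 regions in Zfhx3 exceeded those in 82.7% of these genes, and its mixture of directions was common for genes of that size. Zfhx4 with 2 regions inside stood against a median of 1 over 2170 genes of like length. Of 7477 genes as short as Zfhx2, 18.2% held any region.

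Zfhx4 (ENSMUSG00000025255.18, chr3:5218526-5415857, plus strand) had decreased regions at its start, in an intron and far upstream, and no increased one. A single decreased region of 19886 bp, chr3:5210208-5230093, covered the start of the gene. It began 8318 bp upstream and reached 11568 bp into the gene. The last field of its name in the list is 3, which was read here as the number of peaks joined into it. It ranked number 2 in width among all 11180 regions, of which only 10 exceeded 10 kb, 9 of them decreased. This region alone made up 65.3% of the 30463 bp in the 12 Zfhx regions and covered most of the 6.12% of the gene body that lay in decreased regions.

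The wide region took in the first exons, with the starts, of 4 of the 5 annotated Zfhx4 transcripts. It covered no coding base, since the first coding base of the CCDS transcript Zfhx4-201 lies 23190 bp from the start. It also covered 10634 bp of 2700069I18Rik, an antisense gene (chr3:5177586-5220841) that starts 2315 bp inside Zfhx4 and runs the other way, and the whole of Gm10748 (chr3:5212838-5215216). Which of these genes the acetylation belonged to cannot be told apart from position.

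The region held 287 CpG, or 14.4 per kb, at a GC content of 41.4%. Flanks of the same width held 3.97 per kb upstream and 7.24 per kb downstream. In bins of 500 bp, GC content ranged from 31.2% to 61.6%, and CpG counts from 0 to 32. The peak lay in the bin 1000 to 1499 bp past the start, where the sequence printed above comes from. All 3 bins with at least 20 CpG lay just past the start, and none of the 60 bins outside the region reached that count. The decreased region thus reached several kb beyond these CpG-rich bins on both sides.

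**Figure D2:**
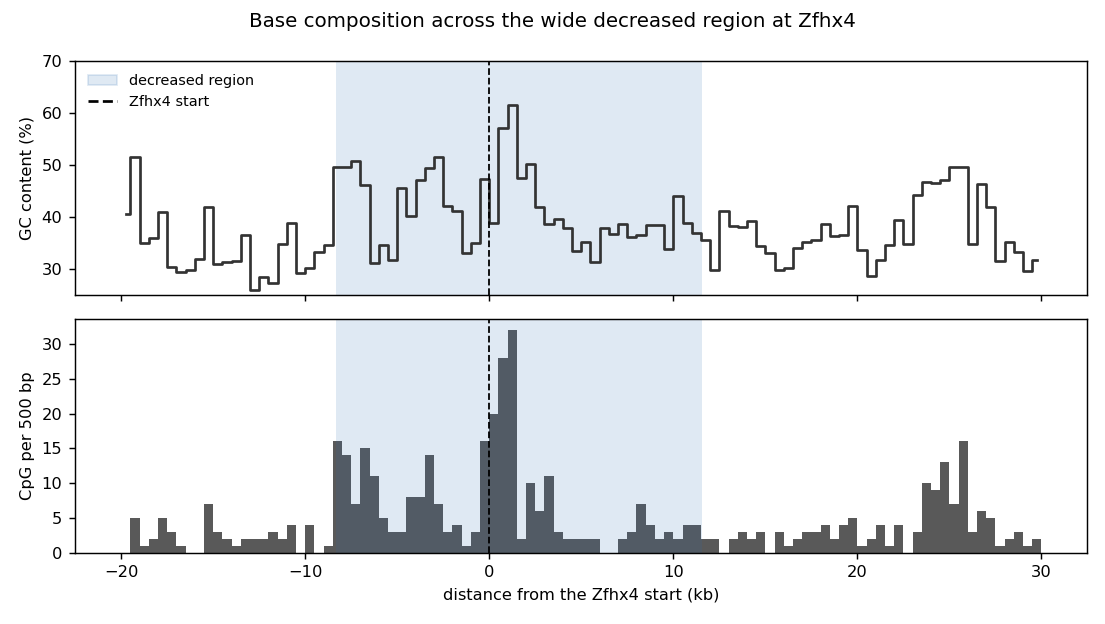
GC content (upper panel, %) and number of CpG (lower panel) in bins of 500 bp against the distance in kb from the Zfhx4 start (dashed line). The shaded decreased region of 19886 bp holds the 3 bins with at least 20 CpG, up to 32, next to the start, and no bin outside it reaches 20.

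The other Zfhx4 regions were AT-rich. The upstream region, chr3:4948829-4950291, was 1463 bp wide and lay 268966 bp before the start, with no protein-coding gene closer to it than Zfhx4. Its GC content was 38.8%, and 3.0% of all decreased regions were lower. The intronic region, chr3:5359271-5359771, was 501 bp wide, the minimum width in the list, and lay in intron 4, 140995 bp past the start, with a GC content of 39.5%. Gaps of 259916 bp and 129177 bp separated these regions from the wide one, and no other differential region lay between. No increased region lay within 500 kb, and the first region outside the window was an increased one at 785786 bp. Pex2, a peroxisome assembly gene and the only other protein-coding gene starting in the window, was nearest to no region.

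Zfhx3 (ENSMUSG00000038872.10, chr8:107942644-108961630, plus strand) had a gene record of 1018987 bp, in which 5 regions were centred, 4 decreased and 1 increased. The record is long because the transcript Zfhx3-204 starts 772000 bp before the CCDS transcript Zfhx3-201, which spans 246987 bp. The regions together covered 5822 bp, or 0.571% of the gene record. All 5 lay in introns, and none overlapped an exon or the start of a coding transcript. A RefSeq promoter of Zfhx3 at the start of Zfhx3-201 (250 bases before and 50 after, chr8:108714394-108714693) had a GC content of 67.3%. It overlapped no region of either direction. It is not the only promoter, as the RefSeq gene itself begins further upstream, at 108279311.

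The 3 decreased regions within Zfhx3-201 lay 88107 bp, 109102 bp and 170710 bp past its start. Among genes of any type, the nearest start was that of Gm38318, which is not counted as protein-coding, at 64811 bp, 43816 bp and 17792 bp. The first, chr8:108802335-108803168 (834 bp), and the second, chr8:108822678-108824815 (2138 bp), were both in intron 3 and 19509 bp apart. The third, chr8:108884718-108885990 (1273 bp), was in intron 4, a further 59902 bp on. They had similar GC contents of 51.4%, 51.4% and 51.0%, above the mean of 48.0% ± 5.28 (SD, n = 7262) over all decreased regions on assembled chromosomes. The second was wider than 89.1% of decreased regions and held 43 CpG. The fourth decreased region inside the gene, chr8:108133941-108134741 (801 bp), lay far upstream of these, in intron 2 of Zfhx3-204, with a GC content of 45.3%.

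The increased Zfhx3 region, chr8:108613872-108614647 (776 bp), lay between the groups of decreased regions, in intron 4 of Zfhx3-204. It was 100385 bp upstream of the start of Zfhx3-201 and 1921 bp from the start of Zfhx3-205, a transcript annotated without a coding sequence. It had a GC content of 42.7% and 1 CpG. Its nearest neighbours among all regions were decreased, and the closest of them was 187687 bp away. In its central 500 bp it held 4 RUNX matches and a MEF2 match, and 3 of the RUNX matches are in the sequence printed above. Of all 11179 regions on assembled chromosomes, 35.8% held at least 1 RUNX match in that span and 27 regions, or 0.242%, held at least 4. MEF2 and RUNX motifs are those of myocyte enhancer factors and of runt-domain factors. The motif was among 6 searched, and the count is a description of the sequence, not of binding.

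The remaining Zfhx3 region was decreased and came in by the window alone. At chr8:107455683-107456791 (1109 bp), it lay 486407 bp before the gene record, in intron 2 of Wwp2, which encodes a ubiquitin ligase, with Wwp2 as the nearest protein-coding gene. It was the region closest to the limit. The next one out, nearest to the osmotic stress factor gene Nfat5, was decreased too and lay 585123 bp away.

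Zfhx2 (ENSMUSG00000040721.9, chr14:55060262-55092324, minus strand) had an increased region just inside the start of its gene record. The region, chr14:55091645-55092145, was 501 bp wide and centred 429 bp inside the gene, and no other region had Zfhx2 as its nearest gene. The centre lay in intron 1 of the coding transcript Zfhx2-201, and 138 bases overlapped its noncoding exon 1 (chr14:55092008-55092324). It was 147 bp from the start of Zfhx2-204, a retained-intron transcript. A RefSeq promoter of Zfhx2, set from a start at 55092048, shared 147 of its 300 bases with the region. An E-box at chr14:55092012-55092017 was in the shared part, and an AP-1 match at chr14:55092280-55092286 was in the promoter outside the region. Of 32851 RefSeq promoters, 16.3% held this E-box and 7.81% held an AP-1 match. In RefSeq the Zfhx2 gene itself begins further upstream, at 55092381, which the region does not reach.

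This region was CpG-rich. It had a GC content of 58.7%, above 98.8% of all increased regions, and 29 CpG or 57.9 per kb, above 99.0% of them. In this it was the opposite of the increased Zfhx3 region, which had 1.29 CpG per kb. Among the 12 regions it and the wide Zfhx4 region were those that reached an annotated Zfhx transcription start, and they had opposite directions. The starts were of different kinds. The Zfhx2 region reached the start of a retained-intron transcript and a RefSeq start, but began 0.179 kb inside the start of the coding transcript. The wide Zfhx4 region covered the starts of coding transcripts.

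Both decreased regions counted to Zfhx2 came in by the window alone and were closer to other genes. One, chr14:54857683-54858183 (501 bp), lay 234391 bp downstream of the Zfhx2 start, wholly within coding exon 2 of the transcript Homez-201, from a gene that is itself a homeobox gene. It was 737 bp from the nearest annotated Homez transcript start, had a GC content of 55.1% and held 1 AP-1 match and 1 E-box. The other, chr14:54940539-54941218 (680 bp), was 151446 bp downstream and 3097 bp from the nearest annotated transcript start of Cmtm5. It had 1 CpG, and 67.1% of its bases were in repeats, more than in any of the other 11. The window around Zfhx2 was crowded, with 41 protein-coding starts, of which Homez, Cmtm5 and Zfhx2 were nearest to a region. The myosin heavy chain genes Myh6 and Myh7, which encode the cardiac and slow motor proteins, lie in it. By distance to their starts they were nearest to none. The region assigned to Cmtm5, which ended at 54941218, nevertheless lay close to the 3' end of Myh6 at 54941921. Zfhx3 and Zfhx4 had 2 protein-coding starts each in their windows, their own included. The first region outside the Zfhx2 window was decreased, at 514873 bp, nearest to the LIM protein gene Ajuba. Over all protein-coding genes, the median number of regions within 500 kb of a start was 5 (quartiles 2 and 8). Zfhx2 and Zfhx4 had 3 and Zfhx3 had 2, so none of these windows was rich in differential regions. The Zfhx3 window is set around the start of the gene record, 772000 bp before that of Zfhx3-201. It left out most of the regions inside that gene.

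Most of the 12 regions had ordinary widths. The 10 decreased regions had a median width of 971.5 bp, beside 863 bp over all decreased regions, and 7 of the 12 were narrower than 1 kb. The wide Zfhx4 region was the exception. Mean GC content was 47.1% ± 5.63 (SD, n = 10) for the decreased Zfhx regions and 48.0% for all decreased regions, a difference well within the spread among regions. The 3 Zfhx4 regions had the lowest GC contents of the 10, between 38.8% and 41.4%, whereas those of Zfhx3 and Zfhx2 ranged from 45.3% to 55.1%. The 2 increased regions, at 58.7% and 42.7%, lay on either side of the mean of 43.5% ± 5.56 (SD, n = 3917) for all increased regions, the second close to it.

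**Figure D3:**
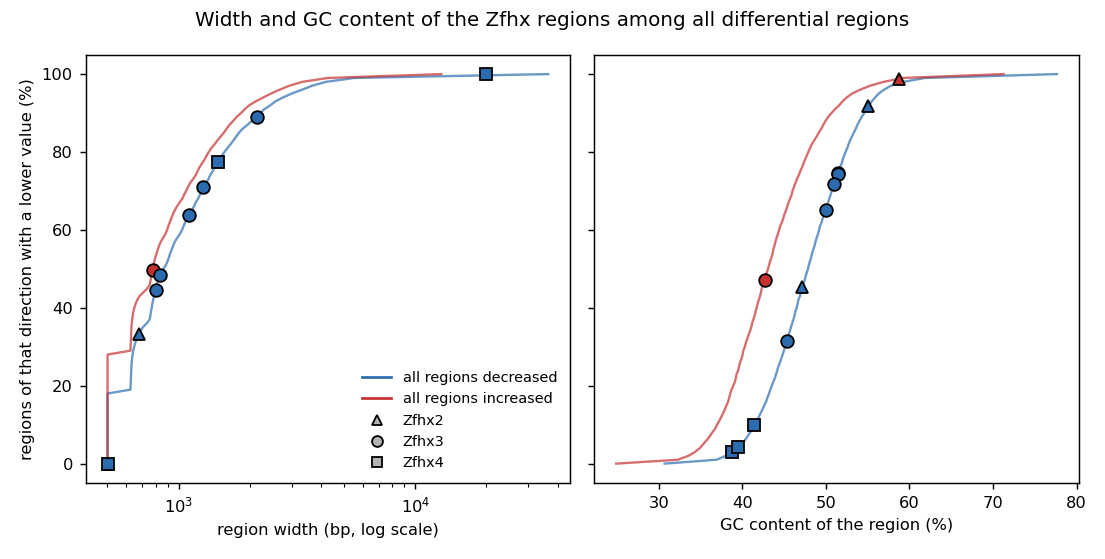
Width (left, bp, log axis) and GC content (right, %) of the Zfhx regions, each plotted against the percentage of regions of its direction that had a lower value. Lines show all decreased (blue) and all increased (red) regions, and 3 of the Zfhx regions share the lowest width of 501 bp and one point. The Zfhx4 regions (squares) lie at the AT-rich end, the increased Zfhx2 region (red triangle) at the GC-rich end, and the region of 19886 bp stands apart in width.

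Motif matches on both strands were counted in the central 500 bp. AP-1 matches were in 3 of 12 Zfhx regions (20.2% of all regions), all 3 decreased. Of these only the upstream region of Zfhx4 had a Zfhx gene as its nearest. The others were the window regions at Homez and Wwp2, counted to Zfhx2 and Zfhx3. The E-box, bound by MyoD and related factors, was in 6 of 12 (34.7% of all regions) and TEAD in 2 of 12 (28.5%), both at Zfhx4. RUNX matches were in 2 of 12 (35.8%), both in Zfhx3, and MEF2 in 1 of 12 (7.7%). The homeodomain core TAATTA, a letter string that many homeodomains bind, was in 1 of 12 (10.9%), the intronic region of Zfhx4. Over its full width, the wide Zfhx4 region had 16 of these cores, 15 TEAD matches, 9 E-boxes, 7 RUNX, 4 MEF2 and 2 AP-1 matches, in 19886 bp of sequence.

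**Figure D4:**
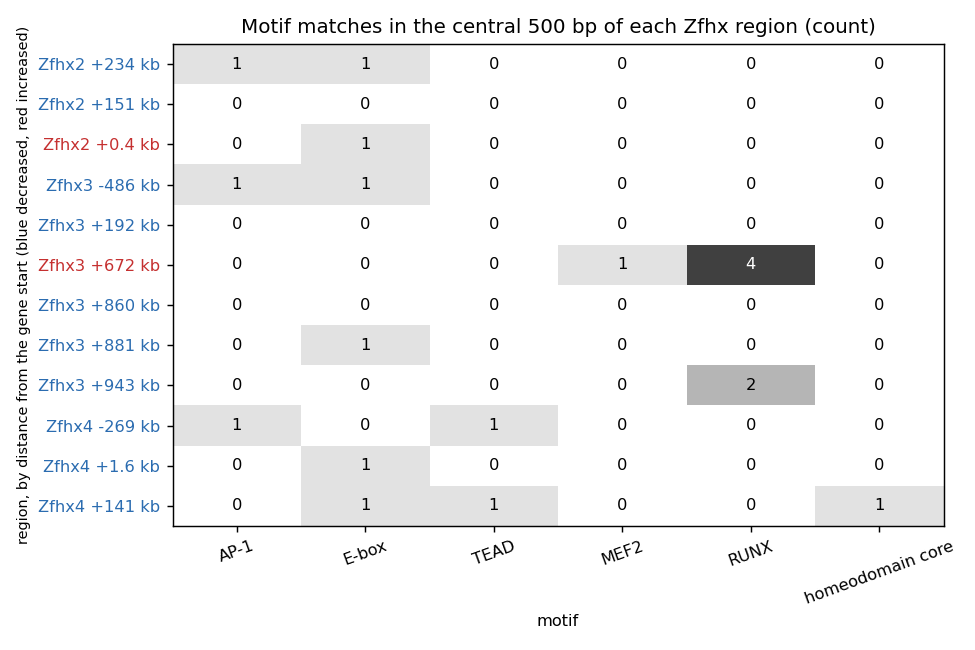
Number of matches to 6 motifs (columns) in the central 500 bp of each of the 12 Zfhx regions (rows, named by gene and distance in kb from its start). Row names are blue for decreased and red for increased regions, and darker cells hold more matches. The increased intronic region of Zfhx3 has 4 RUNX matches, and 3 regions have no match to any motif.

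Other zinc finger class homeobox genes were looked up as a list of 11. Of these, 5 were nearest to a decreased region and 2 to an increased one, with Zeb1 counted under both (2 decreased, 1 increased), beside 17.8% and 10.6% of all protein-coding genes. Those shares are not matched for gene length, which in the list ran from 18226 bp to 438804 bp, and nothing is read from the difference. The repressors Zeb1 and Zeb2 act in mesenchymal cells, and Zeb2 had 3 decreased regions and no increased one, the same counts as Zfhx4, over 2446 bp rather than 21850 bp. Zhx2 had 2 decreased regions, Adnp had 1, and Homez had the 1 that also lies in the Zfhx2 window. Tshz3 had 5 increased regions (6404 bp) and no decreased one. It lies on chromosome 7, where 2.31% of 996 regions were decreased. Adnp2, Tshz1, Tshz2, Zhx1 and Zhx3 were nearest to none, though 1 decreased region was centred inside Zhx3. No direction was shared by the class as a whole.

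**Figure D5:**
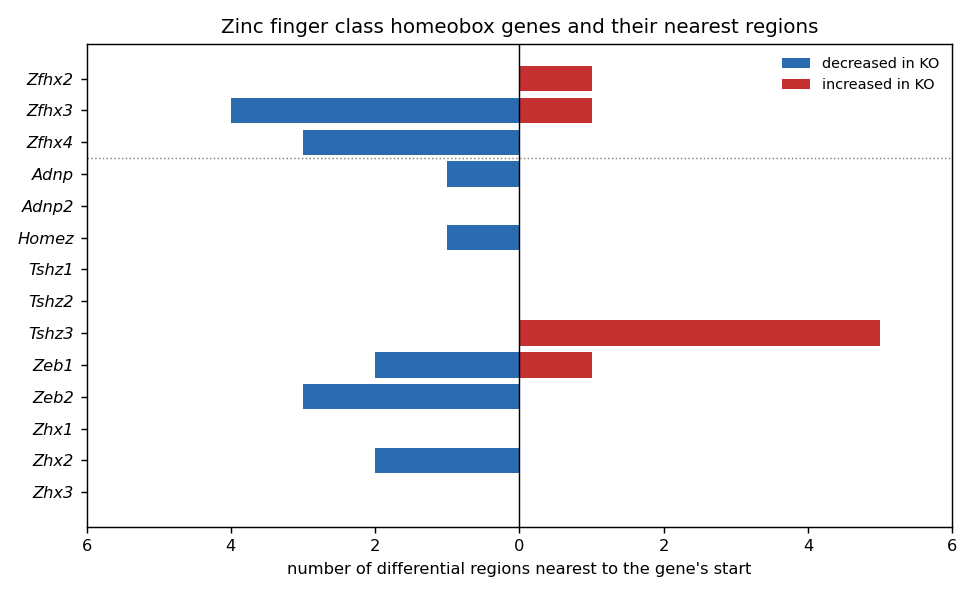
Number of differential regions with each zinc finger class homeobox gene as nearest protein-coding gene, with decreased regions to the left (blue) and increased regions to the right (red) of 0. The Zfhx genes are above the dotted line, and Zfhx3 and Zeb1 are the genes with both directions.

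Known partners and targets of ZFHX3 and ZFHX4 formed a list of 8. Runx3, a runt-domain factor that works with ZFHX3, was nearest to 6 decreased regions and Chd4 to 1. Esr1, the oestrogen receptor gene, had 5 increased regions, all inside the gene. Runx3 lies on chromosome 4, where 92.5% of 877 regions were decreased, and Esr1 on chromosome 10, where 30.9% of 656 were decreased, so both followed the more frequent direction of their chromosome. Pias3, Esr2, Myb, Afp and Cdkn1a were nearest to no region. Marker genes were located for position only. Of 10 myogenic genes, Pax7, the satellite cell factor, was nearest to 8 decreased regions on chromosome 4, Myf5 and Myh3 to 1 increased region each, and 7 to none. Of 6 fibroblast genes, 2 had decreased and 3 had increased regions, and of 3 endothelial genes, 2 had decreased regions and 1 had an increased region. Over all protein-coding genes, 17.8% were nearest to a decreased and 10.6% to an increased region. This is the background for the partner and marker lists too, again not matched for gene length. The part of other cell types in the Zfhx calls was not tested.

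The genes most like each Zfhx gene were those with the closest numbers of nearest decreased and increased regions, with ties broken by the bases covered. For Zfhx3, 34 genes had the same counts of 4 and 1, and the closest in bases covered were Sox5 (5973 bp), Cdk6 (5607 bp) and Syne1 (5551 bp). For Zfhx4, 255 genes had the counts of 3 and 0, but the closest in extent, Sh3pxd2b, had 18570 bp, followed by Mrps6 (14519 bp), both below the 21850 bp of Zfhx4. For Zfhx2, 1161 genes had a single increased region, and many tied at 501 bp.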

How the data were processed

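Per the labels and methods, the authors aligned paired reads to mm10 with BWA-MEM2 (BWA 2.2.1 in the submitters' processing notes), called broad peaks with HOMER 4.11 and kept regions that differed by 2-fold or more. How replicates and IgG libraries entered the calls is not given in the sources used here. The 2 deposited lists, 1 for each direction, hold intervals with no header line. Their score column, which holds the same value in every region, was not used. Differences in depth, digestion or copy number between cultures would pass into the calls.

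Starts were taken as counted from 0, as in BED, and are printed counted from 1. Genes came from GENCODE M21 and promoters from RefSeq, both for GRCm38.p6, with Zfhx2 and Zfhx3 matched in the promoter table. Distances run from a region's centre. The nearest protein-coding start was that of any annotated transcript of a protein-coding gene, noncoding transcripts included, in the background shares too. GC content and CpG were counted over the whole region, and motifs in its central 500 bp, with Python 3.11.15, numpy 2.4.6 and scipy 1.17.1. The nearest-start lookup was tested on simulated positions and the motif search on planted matches, and the other counts were not tested in this way. The Zfhx genes, the gene lists, the motifs and the likeness rule were chosen with earlier results of these data known. Named were all 12 regions, their nearest protein-coding genes, the listed genes and the 3 genes most like each Zfhx gene by counts, then bases, apart from 1 gene that is not reported here. Samples were grouped by the labels. No test was run.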

Additional observations from a re-analysis of the deposited data

How the results depend on the processing

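Of 79 alternative values, 68 stayed within 1.5 times the reported count or, for GC content and motif shares, within the spread or the Wilson interval, and 11 moved. Counts moved most with region width. With regions of at least 1 kb only, 5 decreased and 0 increased Zfhx regions were left. Of these, Zfhx3 held 3 decreased and 0 increased and Zfhx2 held 0 of either direction. Without the window, using gene bodies and nearest starts only, Zfhx2 had 0 decreased regions. With a window of 1 Mb, decreased regions numbered 4 for Zfhx2 and 8 for Zfhx3, and Zfhx4 gained 1 increased region. Over whole regions rather than the central 500 bp, TEAD matches were in 50.0% of the 12 regions instead of 16.7%. By the same change RUNX went from 2 to 5 of the 12 regions, the homeodomain core from 1 to 3 and MEF2 from 1 to 2, each within the wide interval of its share. The 1 Mb window and any-base overlap for single genes, the CCDS transcript start and RefSeq gene bounds were chosen after seeing the data. No paired analysis was possible because the lists hold no value per library, and for the same reason no replicate could be left out. A cutoff of 2-fold without values per library does not show how firmly each region was called, and regions just under the cutoff are not seen.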
